A study of Homo sapiens with 6 samples.

Results

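The ligands and receptors of the tumour necrosis factor (TNF) superfamilies were examined in CAL-27, an established cell line from a squamous carcinoma of the human tongue. The death-inducing, the decoy and the costimulatory members were kept apart. The members were the array probes whose RefSeq transcript belongs to a gene with a symbol starting TNFRSF or TNFSF, or to FAS, FASLG, CD40, CD40LG, CD27, CD70, LTBR, LTA, LTB, TNF, EDAR, EDA2R or RELT. This gave 57 of the 34127 probes on the array, for 47 genes. The same rule took 2 noncoding RNAs with such symbols, TNFRSF10A-DT and TNFRSF10B-AS1, and they were described on their own.

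In the shXBP-1s group (n = 3) the line had received an shRNA that targets XBP-1s, and in the shCtrl group (n = 3) a negative control shRNA. Both groups thus shared the line and an shRNA construct, and differed in the target of the shRNA. XBP-1s is the spliced, active form of the transcription factor XBP1 in the IRE1 branch of the unfolded protein response. Each sample was hybridised to 1 one-colour Agilent array, although the labelling text attached to the samples names another manufacturer's procedure. Neither the labels nor the methods say that replicates came from separate cultures, so p-values measure only the spread between these samples. In bulk RNA, fewer cells of a kind and less RNA per cell cannot be told apart.

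TNF-family ligands are mostly trimeric proteins of the cell surface that can be shed, and their receptors carry cysteine-rich repeats outside the cell. Death receptors have a death domain inside the cell and assemble FADD or TRADD with caspases. Costimulatory and many other receptors bind TRAF proteins and feed NF-kB, and decoy receptors bind ligand without passing on a full signal. Most costimulatory members are best known from lymphocytes and antigen-presenting cells, while death receptors and several ligands are common on epithelial and tumour cells.

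Levels are log2 signals relative to the 75th percentile of the same array, so that 0 is that percentile, and differences are shXBP-1s minus shCtrl on the log2 scale. A probe was called when it reached an adjusted p below 0.05 with limma over all 27624 tested probes and differed at least 2-fold. XBP1 checked the labels. It lay at 1.88, 1.85 and 1.87 on the shCtrl arrays and at -0.50, -0.54 and -0.52 on the shXBP-1s arrays, so the groups stood clear of each other (difference -2.39, SE 0.04, limma adjusted p = 2.81e-07). Which splice form its only probe reads was not tested. The 10 squamous epithelial markers were well above background on all 6 arrays. Of 10 leukocyte markers, 9 had a probe and were also above background throughout, with a summed level between 4.8 and 6.69 on shCtrl arrays and between 3.49 and 3.8 on shXBP-1s arrays, where 1 is the 75th percentile. The summed level of the squamous markers lay between 67.7 and 71.5 in shCtrl and between 88.5 and 96.4 in shXBP-1s. Among 5 endothelial and 5 fibroblast markers, TEK and COL3A1 were above background on no array; the fibroblast sum was 0.945 to 1.04 in shCtrl and 0.608 to 0.631 in shXBP-1s, and the endothelial sum 0.223 to 0.278 and 0.261 to 0.279. Between 82.1% and 84.8% of all spots on an array were well above background, so that flag alone says little about cell types. The part of these markers in the results was not tested. The scanner recorded 2 scans, and shCtrl replicate 1 was scanned with the shXBP-1s arrays while shCtrl replicates 2 and 3 were scanned apart. Differences within that scan, against 1 control array, are given beside each called member probe.

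Of the members, 50 probes for 41 genes passed the filter on dim signals, which kept a probe if either group had all 3 of its arrays well above background. The 7 probes left out were those of CD40LG, TNFSF18, FASLG, EDAR, TNFRSF19 and TNFRSF13B and the dimmer probe of EDA2R. FASLG, TNFSF18, EDAR, TNFRSF13B and that EDA2R probe were not well above background on any array, TNFRSF19 was so on 1 shCtrl array only, and CD40LG on 1 shCtrl and 2 shXBP-1s arrays. Thus no difference could be tested for the ligands of FAS, CD40 and TNFRSF18. Of the 50 tested probes, 10 were called (2 higher, 8 lower in shXBP-1s), and over all tested probes 4.9% were called, 2.29% higher and 2.61% lower. With each gene read from its brightest probe, 9 of the 41 genes were called, 2 higher and 7 lower, where 5.18% of all 16821 tested genes were called, 2.3% higher and 2.88% lower. Without a minimum fold, 28 member probes passed (9 higher, 19 lower), where 41.7% of all probes passed, 18.4% higher and 23.3% lower. The groups did not overlap for 28 member probes, as for 52.4% of all tested probes. With the scan as a block, 23 member probes passed without a minimum fold (9 higher, 14 lower). The 6 that no longer passed were TNFRSF10C, TNFRSF18, TNFRSF12A, TNFSF13 and the brightest probes of CD40 and FAS. The probe of the noncoding RNA TNFRSF10A-DT newly passed there, at 0.63. How many of all tested probes passed with that block was not counted, so the 41.7% is not its background. The median difference was -0.08 over the member probes and -0.02 over all tested probes.

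Ligands and receptors were counted apart, and the difference between them was not tested. Of 14 tested ligand genes, 5 were called lower and none higher (TNF, LTB, TNFSF13B, TNFSF9 and CD70), with a median difference of -0.24. Of 25 tested receptor genes, 2 were called higher (TNFRSF9 and TNFRSF21) and 2 lower (TNFRSF6B and TNFRSF10C), with a median of -0.02. Over all tested genes the median was -0.04, and 2.3% were called higher and 2.88% lower. TNFRSF10C passed the filter only through its shCtrl arrays, which favours a fall, and its call was lost in 10 alternative settings. The calls of TNF, LTB and TNFSF13B were lost with normexp, a background correction described below. Those of LTB and TNFRSF21 were lost with the scan as a block. Without a minimum fold, 8 ligand genes passed lower and 1 higher, and 7 receptor genes passed lower and 6 higher, in all 22 of the 41 genes, where 46.4% of all tested genes passed, 18.9% higher and 27.5% lower.

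**Figure D1:**
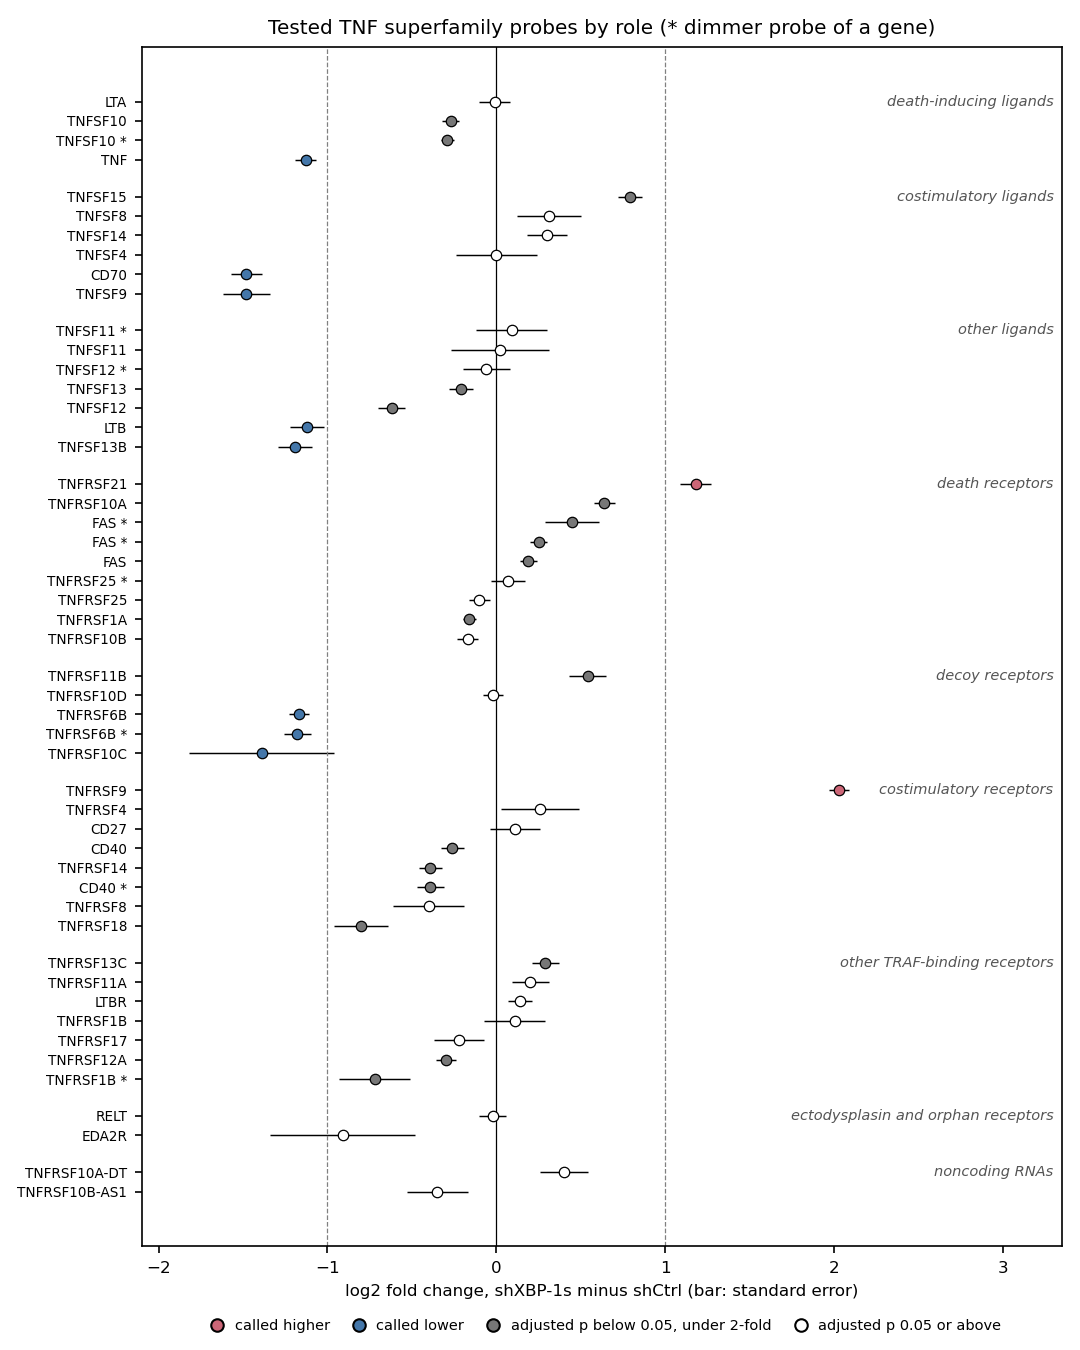
Differences of the 50 tested member probes by role. The horizontal axis is the log2 fold change, shXBP-1s minus shCtrl (n = 3 per group), bars are standard errors from limma, dashed lines mark 2-fold, and an asterisk marks a dimmer probe of a gene with several. TNFRSF9 lies farthest right at 2.03, and CD70 and TNFSF9 farthest left at -1.48.

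Among the costimulatory members the ligands TNFSF9 and CD70 were lower and the receptor TNFRSF9 was higher in shXBP-1s. TNFRSF9 (4-1BB, CD137) is a receptor of activated T and NK cells, and TNFSF9 (4-1BBL) is its ligand, so the pair moved in opposite directions. CD70 is the ligand of CD27, and CD27 itself differed by 0.11 (limma adjusted p = 0.594). The 2 ligands are neighbouring genes on chromosome 19.

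TNFRSF9 measured -1.61, -1.67 and -1.79 on the shCtrl arrays and 0.40, 0.26 and 0.36 on the shXBP-1s arrays. Every shXBP-1s array was above every shCtrl array by far more than the spread within a group. The difference was 2.03 (SE 0.06, 4.08-fold, limma adjusted p = 1.36e-06), and 1.95 within the shared scan. It was the largest difference among the tested member probes.

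TNFSF9 measured 0.79, 1.42 and 1.19 in shCtrl and -0.24, -0.37 and -0.41 in shXBP-1s. The groups did not overlap, and the control array of the shared scan was the lowest of the shCtrl arrays. The difference was -1.48 (SE 0.14, 2.78-fold lower, limma adjusted p = 0.000108), and -1.13 within that scan.

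CD70 measured 1.15, 1.49 and 1.23 in shCtrl and -0.21, -0.23 and -0.13 in shXBP-1s. All control arrays were above the 75th percentile of their array and all shXBP-1s arrays below it. The difference was -1.48 (SE 0.09, 2.79-fold lower, limma adjusted p = 8.55e-06), and -1.34 within the shared scan. TNFSF14 (LIGHT), the next gene along chromosome 19, differed by 0.30 and did not pass (limma adjusted p = 0.0784).

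The other costimulatory ligands gave 1 further pass, in the other direction. TNFSF15 (TL1A), a ligand of TNFRSF25 and of the decoy TNFRSF6B, rose by 0.79 (SE 0.07, limma adjusted p = 8.99e-05), short of 2-fold, and its groups did not overlap. Its neighbour on chromosome 9, TNFSF8 (CD30 ligand), differed by 0.31 (limma adjusted p = 0.238), and TNFSF4 (OX40 ligand) by 0.00, with an adjusted p of 0.99 in limma.

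Of the 7 costimulatory receptor genes, 3 fell without reaching 2-fold. TNFRSF18 (GITR) fell by 0.80 (limma adjusted p = 0.00421), TNFRSF14 (HVEM), the receptor of LIGHT, fell by 0.39 (limma adjusted p = 0.00242), and CD40, which receives help from T cells, fell by 0.26 (limma adjusted p = 0.0163). A dimmer probe of CD40 fell by 0.39 (limma adjusted p = 0.00574). With the scan as a block TNFRSF18 gave -0.50 and the brightest CD40 probe -0.28, which did not pass (limma adjusted p = 0.0511 and 0.0714), while TNFRSF14 and the dimmer CD40 probe did (-0.33 and -0.41, limma adjusted p = 0.0342 and 0.0329). TNFRSF4 (OX40), next to TNFRSF18 on chromosome 1, differed by 0.26 (limma adjusted p = 0.405), and TNFRSF8 (CD30) by -0.40 (limma adjusted p = 0.17).

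The promoter of TNFRSF9 is shown because this gene had the largest difference. The sequence is from RefSeq on GRCh38.p14, chr1:7940790-7941089, minus strand, from 250 bases before to 50 bases after the annotated start, and the capitals mark 2 overlapping matches to the NF-kB consensus whose first bases lie at -74 and -73.
TNFRSF9: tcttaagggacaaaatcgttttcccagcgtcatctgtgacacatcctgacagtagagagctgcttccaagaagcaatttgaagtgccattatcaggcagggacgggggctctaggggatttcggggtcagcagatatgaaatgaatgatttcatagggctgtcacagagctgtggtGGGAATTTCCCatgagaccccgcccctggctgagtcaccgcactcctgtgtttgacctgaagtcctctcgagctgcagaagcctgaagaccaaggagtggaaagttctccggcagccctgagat
Each strand carries 1 of the matches. The NF-kB consensus, searched on both strands, matched 10.8% of 27305 RefSeq promoters of this length. The RefSeq promoter set used here held an entry for 30 of the 47 member genes, and 5 of these 30 had a match. An AP-1 match, TGANTCA on both strands, was also present in the TNFRSF9 window, as in 7.76% of all promoters and 7 of the 30. A match is a description of letters in a window, and binding was not measured here.

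**Figure D2:**
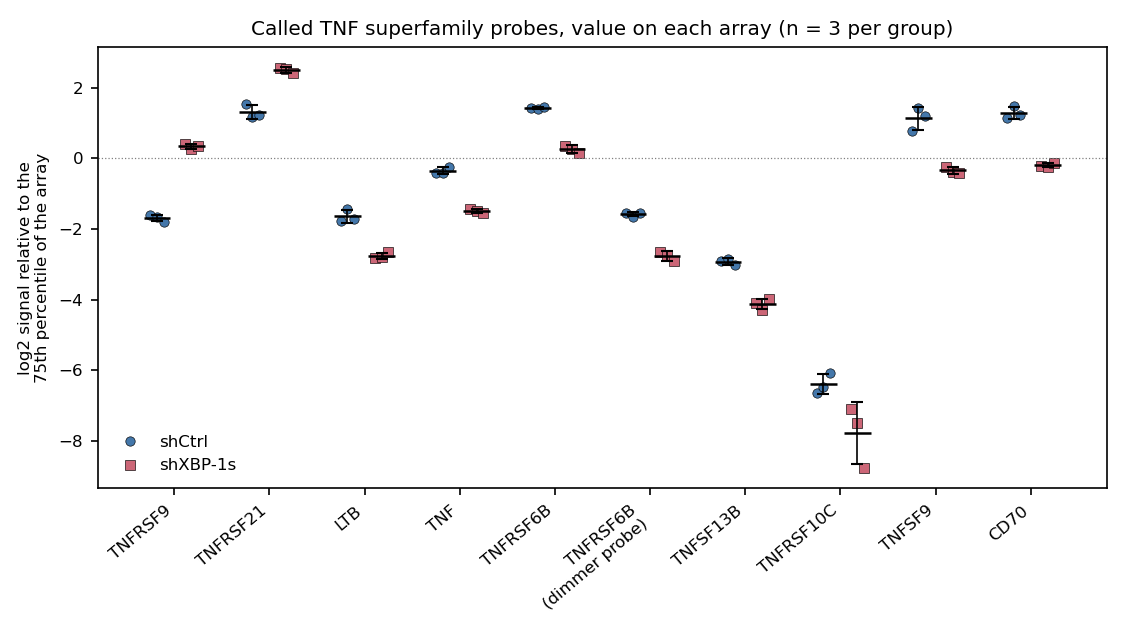
Values of the 10 called member probes on each of the 6 arrays. The vertical axis is the log2 signal relative to the 75th percentile of the array, points are single arrays, horizontal bars are group means and error bars are SD (n = 3 per group). The shXBP-1s squares lie above the shCtrl circles for TNFRSF9 and TNFRSF21 and below them for the other 8 probes; levels of different probes are not comparable.

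Among the death-inducing ligands TNF was lower in shXBP-1s, LTA did not pass and TNFSF10 was slightly lower. TNF is the founding cytokine of the family and lies between LTA and LTB on chromosome 6. It measured -0.41, -0.40 and -0.24 in shCtrl and -1.43, -1.49 and -1.54 in shXBP-1s. The groups were about 1 log2 unit apart, with little spread inside either. The difference was -1.13 (SE 0.06, 2.19-fold lower, limma adjusted p = 7.43e-06), and -1.07 within the shared scan.

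LTA (lymphotoxin alpha), on one side of TNF, differed by -0.01 (SE 0.09, limma adjusted p = 0.928). LTB (lymphotoxin beta), on its other side, anchors LTA in a heterotrimer that binds LTBR. LTB measured -1.76, -1.42 and -1.71 in shCtrl and -2.82, -2.79 and -2.65 in shXBP-1s, with no overlap. The difference was -1.12 (SE 0.10, 2.18-fold lower, limma adjusted p = 6.85e-05), and -0.99 within the shared scan, which is just under 2-fold. Its receptor LTBR differed by 0.14 (limma adjusted p = 0.142).

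The LTB promoter is shown as the other NF-kB match among the called genes, chr6:31582376-31582675 on the minus strand of GRCh38.p14 in RefSeq, with the matches at -86 and 38 in capitals.
LTB: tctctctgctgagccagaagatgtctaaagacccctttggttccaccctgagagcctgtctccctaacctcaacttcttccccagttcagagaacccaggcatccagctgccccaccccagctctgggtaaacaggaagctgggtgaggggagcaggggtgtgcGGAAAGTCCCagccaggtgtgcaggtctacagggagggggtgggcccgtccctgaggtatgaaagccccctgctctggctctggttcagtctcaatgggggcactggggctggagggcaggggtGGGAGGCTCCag
The promoters of TNF, TNFSF9, TNFSF13B and TNFRSF6B had no NF-kB match in the same window. CD70 and TNFRSF10C had no entry in the promoter set used.

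TNFSF10 (TRAIL), the ligand of the TNFRSF10 receptors, fell by 0.27 and by 0.29 with its 2 probes (limma adjusted p = 0.00202 and 0.00078). Its 4 receptors did not move as 1 group. TNFRSF10A (DR4), a death receptor, rose by 0.64 (SE 0.06, limma adjusted p = 0.00012), and its shXBP-1s arrays were all above the shCtrl arrays. TNFRSF10B (DR5), the other death receptor for TRAIL, differed by -0.17 (limma adjusted p = 0.0696) with overlapping groups. The decoy TNFRSF10D differed by -0.02 (SE 0.06, limma adjusted p = 0.788).

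TNFRSF10C, the decoy for TRAIL that is tethered by a lipid anchor, was dim. It measured -6.63, -6.46 and -6.07 in shCtrl and -7.08, -7.49 and -8.77 in shXBP-1s, where it was not well above background on any array. Its level in shXBP-1s is thus only bounded, and the probe passed the filter only through its shCtrl arrays. The bound rests on the lowest signal of any probe well above background, and normexp gave a smaller difference (-0.35). The control mean of -6.39, set against the lowest level well above background on the shXBP-1s arrays or the probe's own where higher (mean -7.13), gave at least 1.68-fold lower (limma adjusted p = 0.0329 for the fitted difference of -1.39, SE 0.43). The difference was -1.15 within the shared scan (limma adjusted p = 0.205 with the scan as a block). This call was lost in 10 alternative settings, among them leaving out shXBP-1s replicate 3, which gave -0.90.

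Among the decoy receptors TNFRSF6B carried the clearest difference. TNFRSF6B (DcR3) is a secreted receptor that captures FASLG, LIGHT and TL1A, and a readthrough transcript joins it to its neighbour RTEL1. The brighter probe measured 1.44, 1.41 and 1.46 in shCtrl and 0.36, 0.28 and 0.16 in shXBP-1s. The dimmer probe measured -1.54, -1.65 and -1.55 and then -2.65, -2.72 and -2.91. Neither probe had overlapping groups. The differences were -1.17 (SE 0.06, limma adjusted p = 4.85e-06) and -1.18 (SE 0.08, limma adjusted p = 1.77e-05), and -1.17 and -1.22 within the shared scan.

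TNFRSF11B (osteoprotegerin), the decoy for RANKL that also binds TRAIL, went the other way. It measured -3.98, -3.59 and -3.77 in shCtrl and -3.32, -3.25 and -3.14 in shXBP-1s, and rose by 0.54 (limma adjusted p = 0.00543). Thus of the 4 decoy genes 2 were called lower, 1 rose below 2-fold and 1 did not pass. Of the 2 called lower, only TNFRSF6B was well above background in both groups. The median difference of the 5 decoy probes was -1.17, but 2 of these probes belong to TNFRSF6B. Over the 4 genes it was -0.60, with the fitted value of the dim TNFRSF10C included.

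Of the 6 death receptor genes, TNFRSF21 was called, and without a minimum fold TNFRSF10A and FAS rose too while TNFRSF1A fell. TNFRSF21 (DR6) is a death-domain receptor with a known role in neurons and lymphocytes. It measured 1.54, 1.18 and 1.24 in shCtrl and 2.57, 2.53 and 2.41 in shXBP-1s. The groups did not overlap, and the control array of the shared scan was the highest of the shCtrl arrays. The difference was 1.18 (SE 0.09, 2.27-fold, limma adjusted p = 4e-05), and 0.96 within the shared scan, which is under 2-fold (limma adjusted p = 0.000145 with the scan as a block).

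The TNFRSF21 promoter is shown because it held the ACGTG core of XBP1 sites, the only one among the 7 called genes with an entry, at chr6:47309856-47310155 on the minus strand of GRCh38.p14 in RefSeq. The capitals mark the core read on both strands, with first bases at -34 and -33.
TNFRSF21: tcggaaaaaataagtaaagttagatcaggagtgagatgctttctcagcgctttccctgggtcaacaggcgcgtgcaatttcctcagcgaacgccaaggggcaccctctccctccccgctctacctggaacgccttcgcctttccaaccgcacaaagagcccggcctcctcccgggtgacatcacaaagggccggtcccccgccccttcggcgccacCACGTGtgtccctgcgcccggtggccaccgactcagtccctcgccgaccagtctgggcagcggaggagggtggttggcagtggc
The letters ACGTG occurred on either strand in 21.6% of all promoters of this length and in 4 of the 30 member promoters. The longer endoplasmic reticulum stress element (ERSE) occurred in 0.0806% of all promoters and in 0 of the 30.

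FAS, the receptor of the FAS ligand, rose by 0.19, 0.25 and 0.45 with its 3 probes, from the brightest to the dimmest (limma adjusted p = 0.017, 0.00429 and 0.0493). The groups overlapped for the dimmest. With the scan as a block the brightest gave 0.13 and did not pass (limma adjusted p = 0.178), and the other FAS probes did. TNFRSF1A, the main receptor of TNF, fell by 0.16 (SE 0.04, limma adjusted p = 0.0179). TNFRSF25 (DR3), the signalling receptor of TL1A, differed by -0.10 and 0.07 with its 2 probes, and neither passed (limma adjusted p = 0.19 and 0.61).

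Of the other ligands, TNFSF13B (BAFF), a survival factor of B cells, was called lower. It measured -2.91, -2.84 and -3.03 in shCtrl and -4.09, -4.28 and -3.99 in shXBP-1s, with every shXBP-1s array more than 0.9 log2 units under every control. The difference was -1.19 (SE 0.10, 2.29-fold lower, limma adjusted p = 4.64e-05), and -1.21 within the shared scan. Of the receptors that bind BAFF, TNFRSF13C (BAFF receptor) rose by 0.29 (limma adjusted p = 0.0272) and TNFRSF17 (BCMA) differed by -0.22 (limma adjusted p = 0.279). TNFSF13 (APRIL), a close relative of BAFF, fell by 0.21 (limma adjusted p = 0.0469), and gave -0.24 with the scan as a block, which did not pass (limma adjusted p = 0.104).

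TNFSF12 (TWEAK), next to TNFSF13 on chromosome 17, and its receptor TNFRSF12A (Fn14) both fell, by 0.62 and by 0.30 (limma adjusted p = 0.000653 and 0.00619). A dimmer probe of TNFSF12 differed by -0.06 (limma adjusted p = 0.749), so the probes of this gene disagreed in size. With the scan as a block TNFRSF12A gave -0.19 and did not pass (limma adjusted p = 0.0918). TNFSF11 (RANKL), which drives osteoclast formation, differed by 0.02 and 0.09 with its 2 probes, and its receptor TNFRSF11A (RANK) by 0.20, none of which passed (limma adjusted p = 0.964, 0.756 and 0.174).

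The remaining receptors gave no call. TNFRSF1B, the other TNF receptor, differed by 0.11 with its brighter probe (limma adjusted p = 0.656), while its dimmer probe fell by 0.72 (limma adjusted p = 0.0265) and stood above background on only 2 of its shXBP-1s arrays. EDA2R, a receptor of ectodysplasin, differed by -0.91 (SE 0.43, limma adjusted p = 0.129), and RELT, a receptor with no settled ligand, by -0.02 (limma adjusted p = 0.868). The noncoding RNAs TNFRSF10A-DT and TNFRSF10B-AS1 differed by 0.40 and -0.35 (limma adjusted p = 0.0537 and 0.163). With the scan as a block TNFRSF10A-DT gave 0.63 and passed.

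Ligands and their receptors are set side by side here as a description. TNFSF9 fell and TNFRSF9 rose, TNFSF10 fell and TNFRSF10A rose, and TNFSF15 rose while its decoy TNFRSF6B fell. TNFSF13B fell and TNFRSF13C rose slightly, but the rise of TNFRSF13C passed only in part of the settings. TNF with TNFRSF1A and TNFSF12 with TNFRSF12A both fell, and so did TNFSF10 with its dim decoy TNFRSF10C. The falls of TNFRSF1A, TNFRSF12A and TNFRSF10C did not pass in every setting, and only the brighter TNFSF12 probe passed. For neighbouring genes, both members of the TNF and LTB pair and of the TNFSF9 and CD70 pair were called lower, while LTA and TNFSF14, the next members beside them, did not pass.

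With normexp background correction, a model-based correction that adds an offset, TNF and LTB differed by -0.90 each, TNFSF13B by -0.78 and the dimmer TNFRSF6B probe by -0.97, so that their calls were lost, as was that of TNFRSF10C, while their limma adjusted p stayed below 0.05.

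**Figure D3:**
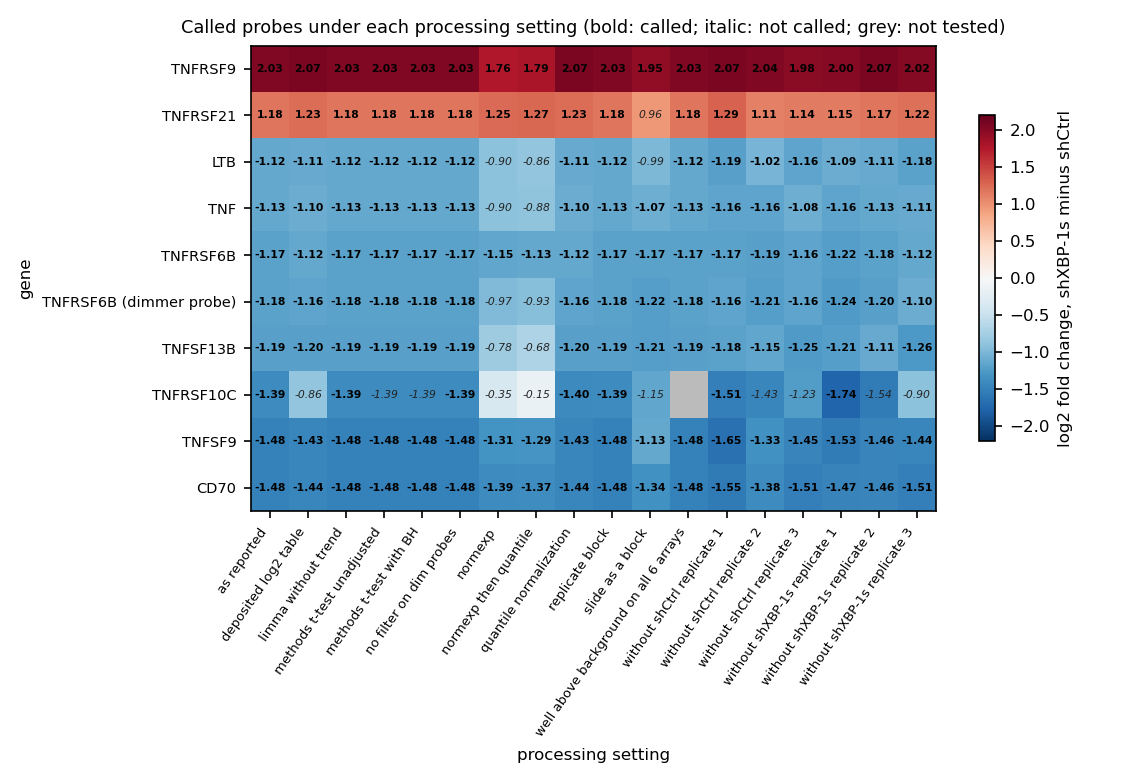
Log2 fold changes, shXBP-1s minus shCtrl, of the 10 called member probes (vertical axis) as reported and under 17 other processing settings (horizontal axis). Colour gives the value, bold text means called and grey means not tested. The column labelled slide uses the scan as its block, because slide identities were not read. TNFRSF9, TNFSF9, CD70 and the brighter TNFRSF6B probe were called in every column, and TNFRSF10C in the fewest.

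Signalling genes here were genes that carry the signal inside the cell, NF-kB target genes and genes that govern shedding. They were described from lists of 60 genes, of which 58 were tested. By the brightest probe, 2 were called higher (TRAF1 and CXCL8) and 2 lower (TNFAIP2 and NFKBIA), 6.90% where 5.18% of all tested genes were called. Without a minimum fold 18 passed higher and 17 lower, 60.3% where 46.4% of all tested genes passed (18.9% higher, 27.5% lower). When the tested probes of each gene were averaged instead, 6 were called, 3 higher and 3 lower. The lists were written from general knowledge, with earlier results of these data known, and each gene stands in every list it belongs to. CXCL8 and TNFAIP2 stood only in the list of NF-kB targets.

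TRAF1, an adaptor that binds TNFRSF9 and is itself an NF-kB target, measured -2.57, -2.52 and -2.54 in shCtrl and -1.32, -1.12 and -0.95 in shXBP-1s. The groups were far apart, with more spread in shXBP-1s. It rose by 1.41 (SE 0.09, limma adjusted p = 1.47e-05), and gave 1.44 with the scan as a block. Of the 15 tested TRAF, cIAP and ubiquitin genes it was the only one called by the brightest probe, 6.67% where 5.18% of all tested genes were called. Without a minimum fold 3 passed higher and 6 lower, 60.0% where 46.4% of all tested genes passed.

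CXCL8 (interleukin 8), a chemokine for neutrophils, measured 2.65, 2.64 and 2.60 in shCtrl and 3.74, 3.90 and 4.01 in shXBP-1s. All shXBP-1s arrays were higher, by 1.25 on average (SE 0.07, limma adjusted p = 7.2e-06) and by 1.23 with the scan as a block. TNFAIP2, an NF-kB target named for its induction by TNF, measured 6.14, 6.10 and 6.12 in shCtrl and 4.60, 4.57 and 4.58 in shXBP-1s. It fell by 1.54 (SE 0.05, limma adjusted p = 1.18e-06), and gave -1.56 with the scan as a block.

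NFKBIA (IkB alpha), which holds NF-kB in the cytoplasm and is induced by it, measured 4.76, 4.96 and 4.86 in shCtrl and 3.75, 3.82 and 3.93 in shXBP-1s. It fell by 1.03 (SE 0.07, limma adjusted p = 1.84e-05), at the edge of 2-fold, and 5 alternative settings put it between -0.93 and -0.99, the scan block among them at -0.93. The 15 tested NF-kB target genes thus held 2 called higher and 2 called lower, 26.7% where 5.18% of all tested genes were called. Without a minimum fold 6 passed higher and 5 lower, 73.3% where 46.4% of all tested genes passed. The called targets are all of the signalling genes called by the brightest probe. The list was chosen with earlier results of these data known, so these shares are descriptive only.

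None of the 12 tested genes of the death-receptor complex and the caspases was called by its brightest probe. Without a minimum fold 4 passed higher and 2 lower. FADD, the adaptor of the complex, rose by 0.24 (limma adjusted p = 0.0142), and XIAP, an inhibitor of caspases, fell by 0.22 with its brightest probe (limma adjusted p = 0.0112). The dimmer XIAP probe was called the other way, at -4.75, -3.98 and -4.07 in shCtrl and -3.09, -3.09 and -3.03 in shXBP-1s (difference 1.19, SE 0.19, limma adjusted p = 0.00141). That call was lost without shCtrl replicate 1 (0.95), with normexp (0.59) and with normexp and quantile normalization (0.69). The probes of XIAP thus disagreed in direction. CASP8, the first caspase of the pathway, differed by 0.03 (limma adjusted p = 0.652). Of the 16 tested IKK, MAP3K and NF-kB genes, NFKBIA was the only one called by the brightest probe, 6.25% where 5.18% of all tested genes were called. Without a minimum fold 5 passed in each direction, 62.5% where 46.4% of all tested genes passed. Dimmer probes were called for TAB3 and TAB1, which activate the kinase MAP3K7. The dimmer TAB3 probe measured -1.63, -1.56 and -1.54 in shCtrl and 0.04, 0.06 and 0.19 in shXBP-1s, a rise of 1.68 (SE 0.06, limma adjusted p = 1.66e-06), and the brighter rose by 0.59 (limma adjusted p = 0.000213). The dimmer TAB1 probe measured -6.42, -6.29 and -6.45 in shCtrl and -9.35, -7.98 and -9.32 in shXBP-1s, where no array was well above background. Bounded as for TNFRSF10C, it was at least 1.68-fold lower on the scale used here (limma adjusted p = 0.00169 for the fitted difference of -2.50). Its call was lost with the deposited table (-0.95), normexp (-0.45) and normexp with quantile normalization (-0.24). The brighter TAB1 probe differed by -0.02 (limma adjusted p = 0.854). Of the 5 genes for proteases and an inhibitor that govern shedding of ligands and receptors, none was called (all tested genes: 5.18%). Without a minimum fold 2 passed higher and 1 lower, 60.0% where 46.4% of all tested genes passed. ADAM17, which releases TNF, differed by 0.17 (limma adjusted p = 0.204).

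**Figure D4:**
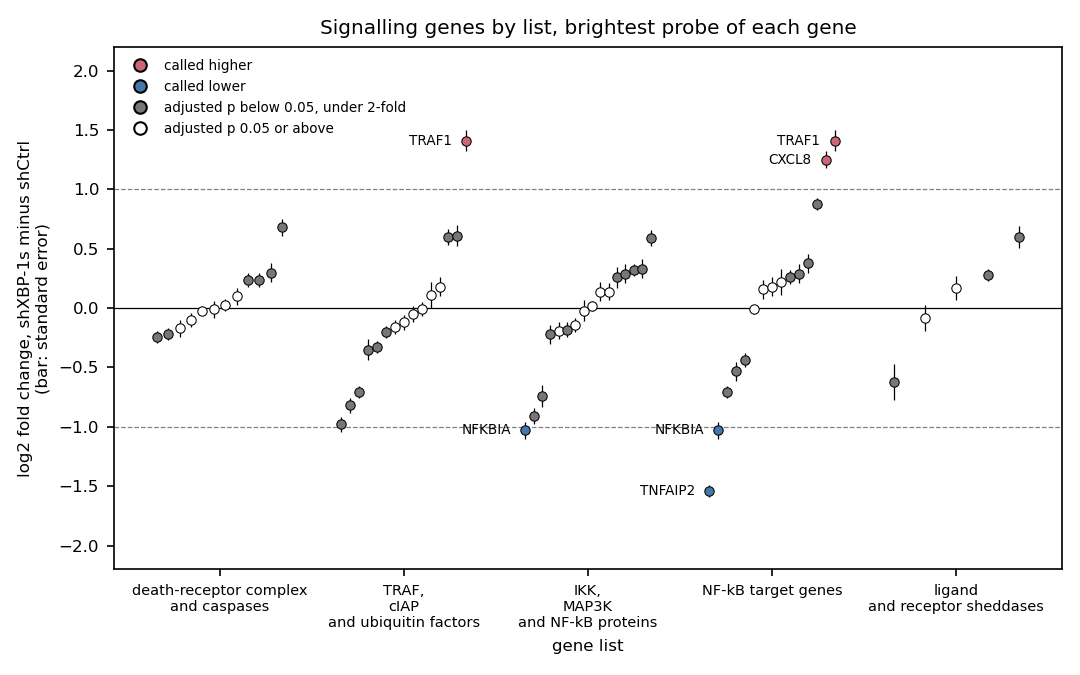
Differences of the signalling genes by list, with 1 point per gene by its brightest probe. The vertical axis is the log2 fold change, shXBP-1s minus shCtrl (n = 3 per group), bars are standard errors from limma and dashed lines mark 2-fold. TRAF1 and CXCL8 lie above the upper line and TNFAIP2 and NFKBIA below the lower, and genes held by 2 lists are drawn in both.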

How the data were processed

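Total RNA from 6 samples was hybridised to 1-colour Agilent arrays. The authors deposited Feature Extraction 11.0.1.1 output, whose intensity per spot is background-subtracted but not normalized between arrays, and a log2 table; the submitters' notes name RMA without its role. Each array held 44495 spots, 1377 of them controls. Between 230 and 377 outlier spots per array were left out. The log2 signal minus the 75th percentile of the array was averaged per probe. Probes well above background (over 50% of spots) on all 3 arrays of a group were tested with limma 3.58.1 in R 4.3.3 (lmFit, eBayes with trend), Benjamini-Hochberg adjusted over 27624 probes, 2-sided. Between 82.1% and 84.8% of spots were well above background, and the number of arrays limits precision. Exact permutation of 3 against 3 allows no p below 0.1. RefSeq accessions named 25771 probes. A gene was given by its brightest tested probe.

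The members, roles and gene lists were chosen with earlier results of these data known. Every tested member was named, per-array values were given for called members, and at most 5 called genes per signalling list. The test was checked on simulated data. Alternatives were normexp on the median spot signal, quantile normalization, the deposited table, other filters, limma without trend, the methods' t-test, the replicate number or the scan as a block, the mean over probes of a gene, and leaving out each array.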

Additional observations from a re-analysis of the deposited data

How the results depend on the processing

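Under 17 alternatives, the called member probes kept their direction throughout and their call in 149 of 169 values; TNFRSF9, TNFSF9, CD70 and the brighter TNFRSF6B probe were called in all, and TNFRSF10C lost its call in 10 and was not tested when all 6 arrays had to be above background. Normexp as planned was not used, because a few spots with a local background up to 17635.5 on shCtrl replicate 2 (median 13) raised that array's median corrected signal from 153.7 to 444.7; flagged backgrounds were set to the array median, a change chosen after seeing the data. It then gave 443 calls over all probes (191 higher, 252 lower; 453 followed by quantile normalization) against 1354 (632 higher, 722 lower), 5 member probes and 5 member genes called with or without quantile normalization, and a median shift of all probes of -0.11. Its offset of 50 compresses dim probes by construction. The probes that lost the call there were TNFSF13B (-0.78, and -0.68 with quantile normalization), TNF (-0.90 and -0.88), LTB (-0.90 and -0.86), the dimmer TNFRSF6B probe (-0.97 and -0.93) and TNFRSF10C (-0.35 and -0.15). With the scan as a block 7 member probes were called, without TNFRSF21, LTB (-0.99) and TNFRSF10C (-1.15). Leaving out 1 array gave 1253 to 1695 calls over all probes, 9 to 10 member probes, 21 to 27 at an adjusted p below 0.05, 8 to 9 member genes and 3 to 5 signalling genes. With the replicate block there were 1381 calls over all probes, 10 member probes, 26 at an adjusted p below 0.05, 9 member genes and 4 signalling genes, with no member call changed; same-numbered samples deviated together with correlations of -0.016, 0.117 and -0.116 and were not taken as pairs, and not every sample correlated best with its own number. Only uncalled probes reversed. In the deposited table and with quantile normalization RELT and TNFRSF10D gave 0.03 each. With normexp CD27 gave -0.09, RELT 0.01, TNFRSF1B -0.09, the dimmer TNFRSF25 probe -0.06, TNFRSF4 -0.16, the dimmer and brighter TNFSF11 probes -0.23 and -0.19, TNFSF14 -0.02 and TNFSF8 -0.11, and with quantile normalization after it RELT 0.03, TNFRSF10B 0.05, TNFRSF10D 0.00, TNFSF11 -0.03 and -0.01, the dimmer TNFSF12 probe 0.01 and TNFSF4 0.05. With the scan as a block RELT gave 0.16, TNFRSF10D 0.08, TNFRSF1B -0.17, the brighter TNFRSF25 probe 0.00 and the brighter TNFSF11 probe -0.65. Leaving out 1 array, the values of those that reversed ran from -0.03 to 0.21 for CD27, -0.06 to 0.03 for LTA, -0.11 to 0.04 for RELT, -0.07 to 0.01 for TNFRSF10D, -0.09 to 0.25 for TNFRSF1B, 0.00 to 0.16 for the dimmer TNFRSF25 probe, -0.01 to 0.15 and -0.23 to 0.36 for TNFSF11 and -0.22 to 0.19 for TNFSF4. Causes were not tested.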
